A study of Mus musculus with 6 samples.

Results

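Major histocompatibility complex (MHC) class II molecules display peptides from endosomes to CD4 T cells, and 7 mouse genes that build and load them are described here. They were the 7 rows of the count table with the symbols H2-Aa, H2-Ab1, H2-Eb1, Cd74, H2-DMa, H2-DMb1 and Ciita, of 24421 genes in all, and all 7 passed the filter on low counts. The tested libraries were 3 GM-CSF libraries, from monocytes sorted from B6 bone marrow and stimulated for 3 h with medium holding 5 ng of granulocyte-macrophage colony-stimulating factor (no volume is stated). They were set against 3 control libraries from monocytes of the same strain and organ. The control label calls these cells freshly isolated, whereas the protocol describes medium with or without the cytokine, so GM-CSF and time in culture cannot be told apart if the control cells were not cultured. No genotype other than the strain, no age and no further agent is given, and the labels do not tell whether the replicates of a group were drawn from different animals or different dishes. The p-values hence cover only library-to-library spread, which may be technical.

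A class II molecule is a pair of an alpha and a beta chain. In the endoplasmic reticulum the pair binds the invariant chain, the product of Cd74, which fills the groove and guides it to endosomes. Cathepsins cut the invariant chain there down to a fragment called CLIP, and the H2-DM heterodimer, made by H2-DMa and H2-DMb1, takes CLIP out and edits the peptides. Transcription of the chain, invariant chain and H2-DM genes is driven by CIITA, a coactivator that does not bind DNA itself but docks on factors bound to the X and Y boxes of class II promoters. Monocytes carry little class II on their surface and gain it as they become dendritic cells or macrophages.

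The X and Y boxes are shown first because they are the promoter elements on which CIITA acts. Another reason is that the 3 genes found to carry both here did not share the change of Ciita. RefSeq promoter windows (GRCm38.p6, 250 bases before to 50 bases after each start) were found for 4 of the 7 genes. No window was found for H2-Ab1, Cd74 or Ciita, so these could not be searched, among them Cd74, which also rose. An X box core, spelled CTNGNAAC, was followed on the same strand by the Y box, spelled TGATTGG, with 10 to 40 bases between them, in H2-Aa, H2-Eb1 and H2-DMb1. The letters and the gap were chosen after reading the class II windows. Neither window of H2-DMa held the pair, which says only that these letters are not in those windows. They span 34122582 to 34122881 and 34125268 to 34125567, downstream of the start of the GENCODE gene model at 34119541. The sequence at that start was thus not searched. Of 32851 windows of the same length, 13.2% held the X box core and 7.82% the Y box on either strand, and 0.0852% held the pair. The stretches below are written 5′ to 3′ on the strand of the gene, with the X and Y box matches in capitals and 12 bases on each side.
H2-Aa, chr17:34287855-34287919, minus strand: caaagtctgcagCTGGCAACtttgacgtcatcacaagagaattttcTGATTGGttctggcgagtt
H2-Eb1, chr17:34305761-34305824, plus strand: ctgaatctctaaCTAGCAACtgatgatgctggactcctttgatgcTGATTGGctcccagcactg
H2-DMb1, chr17:34153082-34153146, plus strand: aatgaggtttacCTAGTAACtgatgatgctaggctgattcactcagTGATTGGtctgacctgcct
The gap between the X and Y box matches was 26, 25 and 26 bases in H2-Aa, H2-Eb1 and H2-DMb1, in that order. Counted from the RefSeq start on which each window is placed, the X box matches began at -84 in H2-Aa, -94 in H2-Eb1 and -97 in H2-DMb1. For H2-DMb1 that start lies downstream of the start of the GENCODE gene model whose coordinates are given further on, so the stretch falls inside that model. A match of this kind is a description of the sequence and does not show that a factor was bound in these cells.

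Ciita rose about 4-fold and Cd74 about 1.7-fold in GM-CSF monocytes, while none of the chain and H2-DM genes rose. Expression is given as reads per 1000000 reads counted in genes (CPM), and log2 fold changes are GM-CSF over control with their SE. A gene is said to have risen or fallen where its Benjamini-Hochberg adjusted p, over all 11731 genes tested with edgeR's quasi-likelihood test, was under 0.05. Of the 7 genes, 2 rose, 1 fell and 4 did not pass, so 3 (42.9%) were called. Of all genes tested, 64.0% were called, 32.8% of them as higher and 31.2% as lower (shares of all tested). The GM-CSF and control values did not overlap for 3 of the 7 genes, against 69.5% of all genes tested (34.9% higher and 34.7% lower with GM-CSF). The median log2 fold change was -0.15 over the 7 genes and 0.01 over all tested. These are bulk samples, in which fewer cells of a type and less RNA per cell cannot be told apart.

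Ciita encodes the class II transactivator and lies on chromosome 16 (10480059 to 10528418, GRCm38, plus strand, protein-coding). It had 52.0, 49.6 and 54.6 CPM in GM-CSF libraries 1 to 3, against 13.0, 11.6 and 12.2 CPM in control libraries 1 to 3. All GM-CSF libraries stood far above all control libraries, and the values within each group lay close together. The means were 52.1 ± 2.48 CPM in GM-CSF and 12.3 ± 0.740 CPM in control libraries (SD, n = 3 each). Its log2 fold change of 2.09 ± 0.10 (95% interval 1.86 to 2.32, edgeR adjusted p = 3.37e-08) is a 4.27-fold difference, and 95.9% of the tested genes had a lower one. Mouse Ciita is transcribed from several promoters used by different cells, and counts per gene do not tell them apart.

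Cd74, on chromosome 18 (60803848 to 60812652, plus strand, protein-coding), encodes the invariant chain. It stood at 722, 676 and 626 CPM in the GM-CSF libraries and at 403, 406 and 389.5 CPM in the control libraries. The groups did not overlap, and GM-CSF replicate 1 was the highest of all libraries. The means were 675 ± 48.4 CPM in GM-CSF and 399.5 ± 8.73 CPM in control libraries (SD, n = 3 each), a log2 fold change of 0.76 ± 0.08 (95% interval 0.59 to 0.93, edgeR adjusted p = 6.99e-06). The calls of Ciita and Cd74 held under each of 16 alternatives, with log2 fold changes of 1.98 to 2.15 and 0.65 to 0.82.

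**Figure D1:**
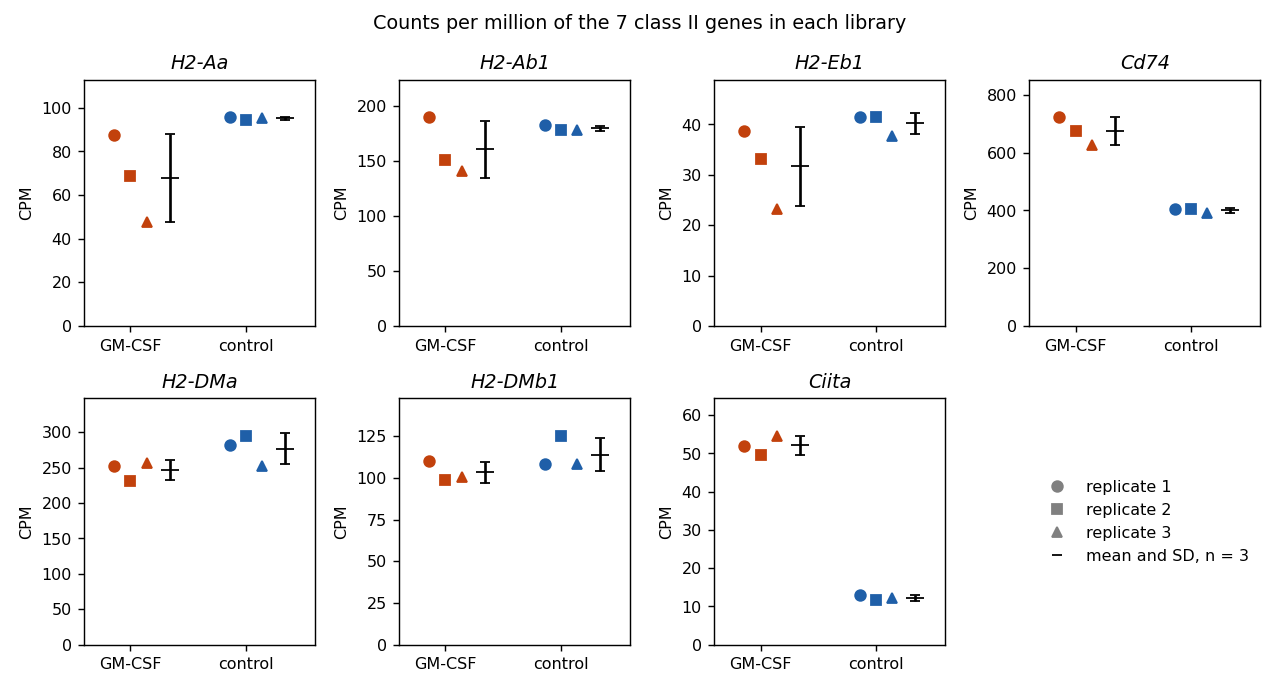
CPM (y axis, linear, from 0) of each of the 7 class II genes in 3 GM-CSF and 3 control libraries (x axis). Marker shapes give the replicate number, and the bar beside each group is the mean with SD (n = 3). Ciita and Cd74 stood higher in every GM-CSF library than in any control library, H2-Aa stood lower, and the other genes overlapped between the groups.

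The 3 classical chain genes lie close together on chromosome 17. H2-Aa encodes the alpha chain of I-A (34282744 to 34287823, minus strand), H2-Ab1 its beta chain (34257689 to 34269419, plus strand), and H2-Eb1 the beta chain of I-E (34305867 to 34316674, plus strand). All 3 are annotated as protein-coding. B6 mice make no I-E alpha chain, and the row H2-Ea-ps had 0 reads in all 6 libraries. A count of 0 allows up to 3 reads, or 0.119 to 0.180 CPM per library, a limit that covers counting error only.

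H2-Aa was the one class II gene called lower. It had 87.5, 68.6 and 47.4 CPM in the GM-CSF libraries, against 95.7, 94.2 and 95.5 CPM in the control libraries. The 3 GM-CSF values were all below the controls but far apart from each other, with a mean of 67.9 ± 20.1 CPM against 95.1 ± 0.801 CPM in control libraries (SD, n = 3 each). This was a log2 fold change of -0.48 ± 0.17 (95% interval -0.86 to -0.10, edgeR adjusted p = 0.0293). The call ended without GM-CSF replicate 2 (-0.47, adjusted p = 0.0795), control replicate 1 (-0.47, 0.0779), control replicate 2 (-0.49, 0.0674) or control replicate 3 (-0.49, 0.0650), and with a robust prior (0.0784). The size depended on which GM-CSF libraries were kept, at -0.72 with replicate 1 of that group left out and -0.27 with its replicate 3 left out, and the call held in both cases.

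H2-Ab1 and H2-Eb1 did not pass the test. H2-Ab1 had 189.7, 151 and 141 CPM in the GM-CSF libraries, against 183, 178 and 178 CPM in the control libraries. GM-CSF replicate 1 was above every control library, and the other GM-CSF libraries were below them all. Its log2 fold change was -0.15 ± 0.11 (95% interval -0.39 to 0.08, adjusted p = 0.225). H2-Eb1 had 38.7, 33.2 and 23.2 CPM in the GM-CSF libraries, against 41.4, 41.5 and 37.7 CPM in the control libraries. Again GM-CSF replicate 1 overlapped the controls and replicate 3 was the lowest library. The log2 fold change of H2-Eb1 was -0.34 ± 0.16 (95% interval -0.69 to 0.02, adjusted p = 0.0868). Without GM-CSF replicate 1 both genes were called lower, H2-Ab1 at -0.30 (adjusted p = 0.00601) and H2-Eb1 at -0.52 (adjusted p = 0.00926), whereas without GM-CSF replicate 3 H2-Eb1 was at -0.14. H2-Eb1 was also called with limma-voom (-0.39) and with no filter on low counts (-0.35).

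The chain genes kept a common order among the GM-CSF libraries. H2-Aa, H2-Ab1, H2-Eb1 and Cd74 were each highest in GM-CSF replicate 1 and lowest in replicate 3. Ciita was highest in replicate 3, by a small margin (52.0, 49.6 and 54.6 CPM in replicates 1 to 3). The share of all genes with the order of the chains was not computed, so this order cannot be read as particular to them. Summed over the 3 chains, the libraries stood at 316, 252 and 212 CPM with GM-CSF, against 319.7, 313 and 311 CPM in controls. The spread within the GM-CSF group was thus far wider than within the control group, and it sets the error of the chain results.

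The H2-DM genes did not pass the test either. H2-DMa (chromosome 17, 34119541 to 34139101, plus strand) had 253, 231 and 256 CPM in the GM-CSF libraries, against 282, 295 and 252 CPM in the control libraries. H2-DMb1 (34153072 to 34160230, plus strand) had 110.4, 99.0 and 101 CPM in the GM-CSF libraries, against 108, 125 and 109 CPM in the control libraries. For both genes the groups overlapped, and no library stood apart. The log2 fold changes were -0.16 ± 0.08 for H2-DMa (95% interval -0.34 to 0.03, adjusted p = 0.127) and -0.14 ± 0.09 for H2-DMb1 (95% interval -0.33 to 0.06, adjusted p = 0.195). H2-DMa was called lower without control replicate 3 (-0.23, adjusted p = 0.0414). H2-DMb1 was at -0.065 without control replicate 2 (adjusted p = 0.563), and leaving out any 1 library did not bring it past the threshold.

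With upper quartile scaling, all 5 chain and H2-DM genes were called lower. That scaling moved the median log2 fold change of all tested genes to -0.11, against 0.01 as reported, and moved these 5 genes by about the same amount, to -0.60 for H2-Aa, -0.45 for H2-Eb1, -0.27 for H2-Ab1 and H2-DMa and -0.25 for H2-DMb1. The calls of H2-Ab1, H2-Eb1, H2-DMa and H2-DMb1 thus depended on the scaling.

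H2-DMb1 has a close neighbouring copy, H2-DMb2, and reads that fit both equally may be left out of both. Reads without a unique alignment stood in a row of their own, with 18.0% to 19.6% of all rows' counts per library. H2-DMb2 had 10.8 ± 0.303 CPM in GM-CSF and 11.6 ± 0.810 CPM in control libraries (SD, n = 3 each; log2 fold change -0.09 ± 0.13, adjusted p = 0.565). It took 9.04%, 9.56% and 9.86% of the reads of the pair in GM-CSF libraries, against 9.01%, 8.96% and 9.68% in controls. Summing the copies left H2-DMb1 at -0.13 (adjusted p = 0.197), which does not bring back reads left out of both rows. The other genes of the region were nearly silent. H2-Ob, whose product with that of H2-Oa inhibits H2-DM, had 3.17 ± 0.881 CPM in GM-CSF and 3.30 ± 0.0320 CPM in control libraries (log2 fold change -0.06), and none of the 3 tested genes of this list passed.

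Ratios of read counts within a library do not depend on how libraries are scaled, and 10 were computed. Reads of Cd74 per read of the 3 chains were 2.29, 2.68 and 2.96 in GM-CSF libraries, against 1.26, 1.29 and 1.25 in control libraries. The groups did not overlap, and the controls were nearly identical. Reads of the 3 chains per read of Ciita were 6.07, 5.09 and 3.87 in GM-CSF libraries, against 24.5, 27.1 and 25.6 in control libraries. Within the I-A pair, H2-Ab1 reads per H2-Aa read were 2.17, 2.20 and 2.97 in GM-CSF libraries, against 1.91, 1.89 and 1.86 in controls. Each of these 3 ratios had an exact two-sided permutation p of 0.1, the smallest that 3 against 3 libraries allow, and 0.143 adjusted over the 10 ratios. The ratio within the H2-DM pair was 2.39 ± 0.139 in GM-CSF and 2.43 ± 0.158 in control libraries (SD, n = 3 each; exact permutation p = 0.6).

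**Figure D2:**
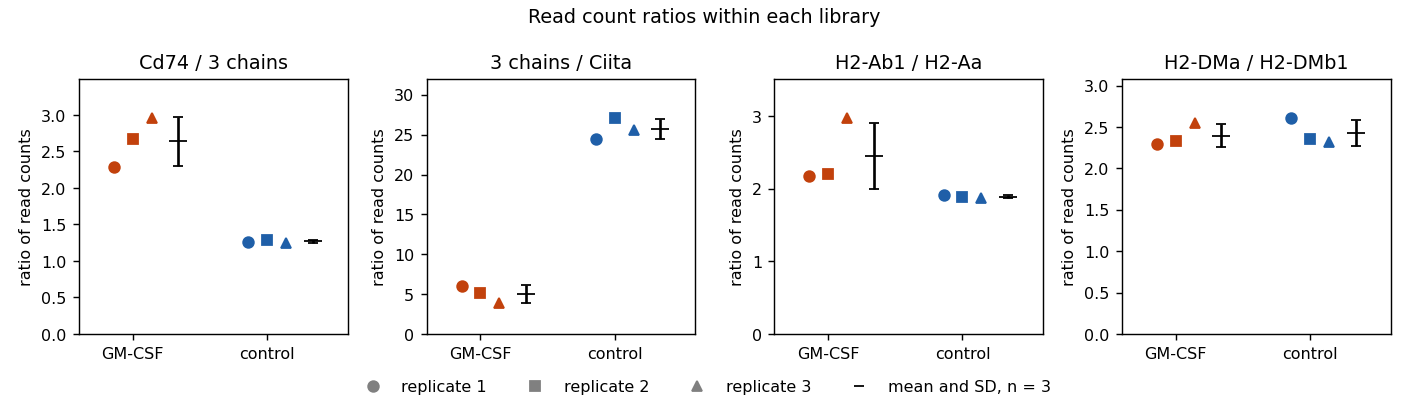
Read count ratios (y axis, linear, from 0) in each GM-CSF and control library (x axis), with mean and SD beside each group (n = 3). The Cd74 to chain ratio stood at 2.29 to 2.96 with GM-CSF and 1.25 to 1.29 in controls, the chain to Ciita ratio at 3.87 to 6.07 with GM-CSF and 24.5 to 27.1 in controls, and the ratio of H2-DMa to H2-DMb1 overlapped.

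Per length, Cd74 was the most abundant of the 7 mRNAs and Ciita the least in both groups. Levels per length are CPM per kilobase of the longest coding transcript in the GENCODE M21 basic set. In GM-CSF libraries Cd74 stood at 478 ± 34.3, H2-Ab1 at 132 ± 21.3, H2-DMa at 123 ± 6.85, H2-DMb1 at 73.6 ± 4.41, H2-Aa at 60.2 ± 17.8, H2-Eb1 at 19.0 ± 4.71 and Ciita at 8.67 ± 0.413 CPM per kilobase (SD, n = 3). In control libraries Cd74 stood at 283 ± 6.19, H2-Ab1 at 148 ± 2.23, H2-DMa at 138 ± 10.9, H2-Aa at 84.3 ± 0.710, H2-DMb1 at 81.2 ± 6.92, H2-Eb1 at 24.1 ± 1.29 and Ciita at 2.04 ± 0.123 CPM per kilobase. In each group, H2-Ab1 and H2-DMa overlapped, as did H2-Aa and H2-DMb1, so their order is not resolved by this length. The order also depended on the length used. With the union of all annotated exons, H2-DMa stood above H2-Ab1 in both groups by the mean, and H2-Aa stood below H2-DMb1 with no overlap, at 17.9 ± 5.29 against 61.4 ± 3.68 CPM per kilobase in GM-CSF libraries and 25.0 ± 0.211 against 67.8 ± 5.78 in control libraries, while Cd74 stayed first and Ciita last.

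Of the DNA-bound factors on which CIITA docks, 5 of 8 rose and 2 fell (median log2 fold change 0.32, against 0.01 over all genes tested). The counts of this list and of those below, markers included, stand beside 32.8% higher and 31.2% lower of all genes tested. Of the RFX complex, which binds the X box, Rfx5 fell to 6.80 ± 1.22 CPM in GM-CSF libraries, against 15.7 ± 2.33 CPM in control libraries (log2 fold change -1.20 ± 0.17), and Rfxank fell as well (-0.71 ± 0.14). The third subunit, Rfxap, did not pass. The 3 subunits of NF-Y, which binds the Y box, rose slightly, Nfyb by 0.54, Nfya by 0.52 and Nfyc by 0.22 on the log2 scale. The CREB family genes Atf1 and Creb1 rose by 0.73 and 0.43. The calls of Nfya and Nfyc ended under several alternatives. With upper quartile scaling, or without GM-CSF replicate 1, control replicate 2 or control replicate 3, 3 of the 8 were called higher.

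Genes that act upstream of Ciita went both ways, 7 of 12 higher and 3 lower (median 0.51), beside 32.8% and 31.2% of all genes tested. Irf1, an interferon-induced factor that acts on Ciita, stood at 119 ± 10.7 CPM in GM-CSF and 185 ± 19.6 CPM in control libraries (log2 fold change -0.63 ± 0.10). Usf1, whose product binds the interferon-responsive promoter of Ciita, fell by 1.60 on the log2 scale, and Irf8, a factor of monocyte and dendritic cell development, fell by 1.34. On the other side, Irf4 stood at 135 ± 6.94 CPM in GM-CSF and 14.3 ± 1.87 CPM in control libraries (3.23 ± 0.11), and the kinase gene Jak2 rose by 2.65. The myeloid factor Spi1 (PU.1) rose by 0.75 to 959 ± 58.9 CPM, against 572 ± 21.1 CPM in control libraries. Ifngr2 and Irf2 rose by 0.53 and 0.50, and Ifngr1 did not pass (-0.14 ± 0.07, adjusted p = 0.0879), though upper quartile scaling called it lower (-0.26).

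Among those that rose were also inhibitors of this pathway. Socs1, which blocks Janus kinases, stood at 53.2 ± 5.68 CPM in GM-CSF and 3.98 ± 0.108 CPM in control libraries (log2 fold change 3.75 ± 0.13). Prdm1, which encodes the repressor BLIMP-1 and is known to silence Ciita in plasma cells, stood at 64.1 ± 7.23 CPM in GM-CSF and 6.06 ± 0.935 CPM in control libraries (3.41 ± 0.14). Ciita was thus higher in the same libraries in which Socs1 and Prdm1 were higher and Irf1 was lower.

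Endosomal genes that prepare peptides or cut the invariant chain were split, 4 of 11 higher and 5 lower (median -0.12). Of all genes tested, 32.8% were higher and 31.2% lower, so a split of this kind is not particular to the list. Ctss, the protease that completes invariant chain cleavage in B cells and dendritic cells, fell to 994 ± 75.5 CPM in GM-CSF libraries, against 1563 ± 155 CPM in control libraries (log2 fold change -0.65 ± 0.10). Ctsl, which has that role in the thymic epithelium of mice, rose to 609 ± 77.7 CPM in GM-CSF libraries, against 60.7 ± 6.12 CPM in control libraries (3.33 ± 0.12). The other genes that rose were Ctsc (1.25), an activator of granule proteases, the asparagine-specific protease gene Lgmn (1.12) and Ctsz (0.76). The other genes that fell were the aminopeptidase gene Ctsh (-1.15), the cysteine protease gene Ctsb (-0.71), the aspartic protease gene Ctsd (-0.62) and Ifi30 (-0.51), whose product reduces disulfide bonds of antigens.

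The largest change among genes of class II turnover was the fall of March1, a membrane ubiquitin ligase that marks the beta chain for removal from the cell surface. March1 had 17.2, 14.9 and 12.1 CPM in the GM-CSF libraries, against 86.0, 89.3 and 80.8 CPM in the control libraries. Every GM-CSF library was far below every control library. The log2 fold change was -2.53 ± 0.13 (edgeR adjusted p = 3.60e-08). Of the 7 genes of turnover and membrane organisation, 1 rose and 4 fell (median -0.47), beside 32.8% and 31.2% of all genes tested. The gene that rose was the tetraspanin Cd9, at 275 ± 30.0 CPM in GM-CSF and 86.5 ± 14.2 CPM in control libraries (1.68 ± 0.12), while the tetraspanin genes Cd82 (-0.57), Cd81 (-0.54) and Cd37 (-0.47) fell. Cd63, a tetraspanin of late endosomes, did not pass (-0.10).

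**Figure D3:**
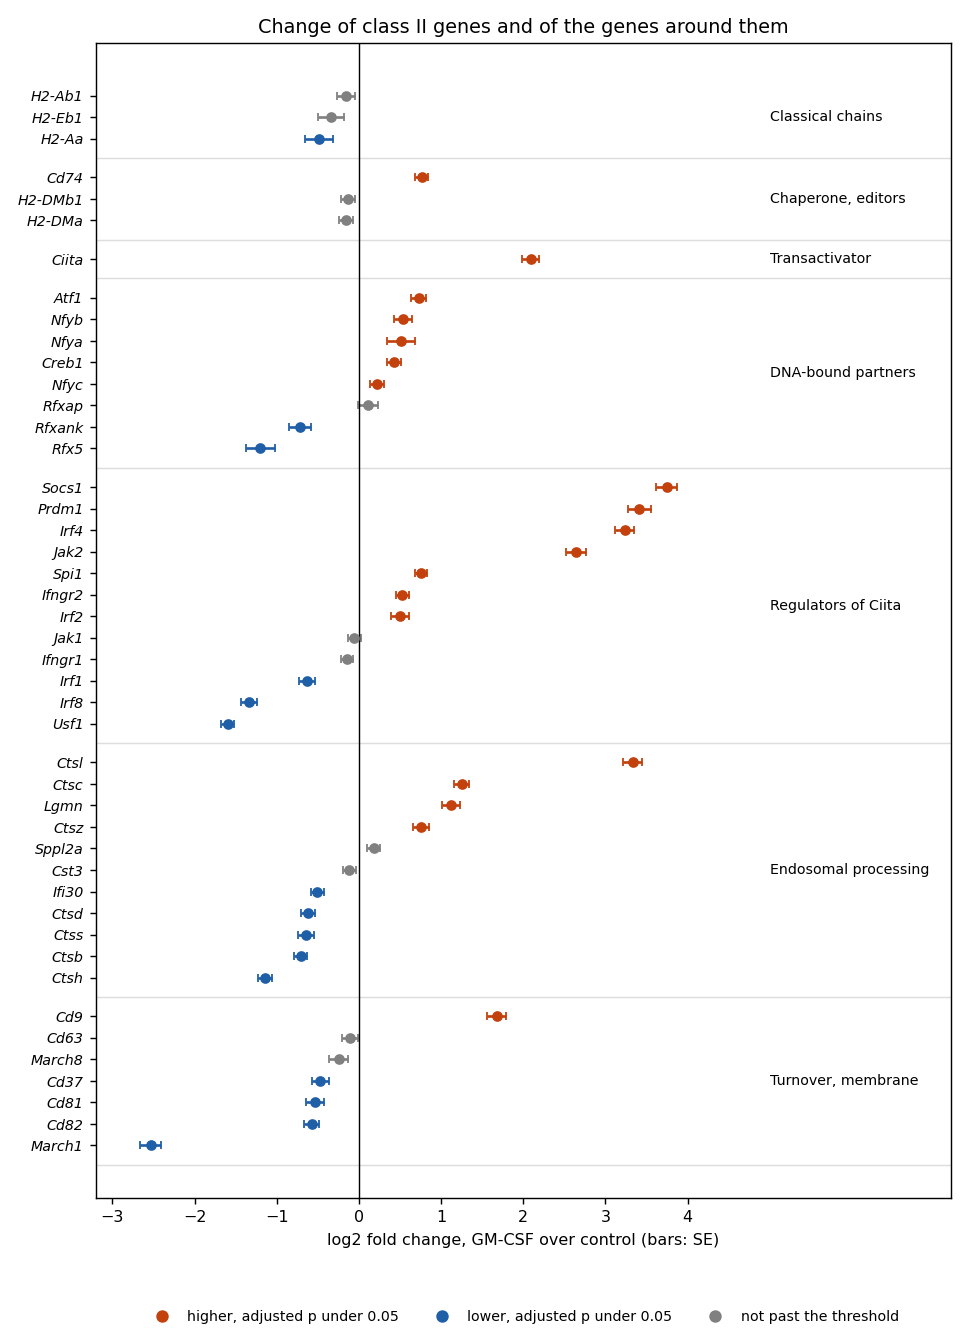
Log2 fold change, GM-CSF over control (x axis, points, bars are SE), of the 7 class II genes and of the tested genes of 4 lists around them (y axis), in colour where the adjusted p was under 0.05. Ciita at 2.09 and Cd74 at 0.76 stand to the right of 0, the chain and H2-DM genes at -0.48 to -0.14 stand just left of it, and March1 at -2.53 is the farthest to the left.

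Other cells with class II can be present in sorted monocytes, and the sorting gate is not described in the labels. Of 8 monocyte markers, 1 rose and 5 fell, and their sum was 27417 to 29847 CPM in GM-CSF libraries and 59387.5 to 68351 CPM in control libraries. By CPM they were led by Lyz2 at 21394 ± 1053 CPM in GM-CSF and 56025 ± 4548 CPM in control libraries and Ly6c2 at 3208 ± 27.2 CPM in GM-CSF and 4080 ± 82.6 CPM in control libraries. The marker that rose was the endotoxin receptor gene Cd14, at 851 ± 244 CPM in GM-CSF and 39.7 ± 4.33 CPM in control libraries, while the chemokine receptor gene Cx3cr1 fell to 42.7 ± 4.22 CPM in GM-CSF libraries, against 481 ± 48.8 CPM in control libraries. The 8 B cell markers summed to 37.1 to 46.0 CPM in GM-CSF libraries and 66.5 to 77.6 CPM in control libraries, 2 of 7 tested falling and none rising. The highest by CPM were Cd79b at 14.4 ± 2.26 CPM in GM-CSF and 35.1 ± 2.22 CPM in control libraries, and Cd79a at 9.49 ± 2.25 CPM in GM-CSF and 13.0 ± 1.19 CPM in control libraries. The 6 plasmacytoid dendritic cell markers summed to 8.34 to 10.5 CPM in GM-CSF libraries and 14.7 to 17.5 CPM in control libraries, with all 3 tested genes lower. The highest of these by CPM were Ly6d, which B cell precursors also express (7.49 ± 0.565 CPM in GM-CSF and 10.9 ± 0.649 CPM in control libraries), and Siglech (0.855 ± 0.810 CPM in GM-CSF and 3.07 ± 0.532 CPM in control libraries). The 8 conventional dendritic cell markers summed to 46.2 to 54.7 CPM in GM-CSF libraries and 59.7 to 65.1 CPM in control libraries, 2 of 8 rising and 2 falling. Zbtb46 and Batf3 rose and Flt3 and Dpp4 fell (median log2 fold change 0.08), so these markers did not fall as a set. With upper quartile scaling 0 of them were called higher. The highest by CPM were Kmo at 18.2 ± 1.51 CPM in GM-CSF and 17.0 ± 2.87 CPM in control libraries, and Dpp4 at 15.4 ± 4.95 CPM in GM-CSF and 25.0 ± 2.80 CPM in control libraries. No marker of these lists was at 0 in all libraries, and all 4 sums, that of the monocyte markers included, were lower in every GM-CSF library than in any control library. Their part in the class II values was not tested.

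Within the GM-CSF group some markers of other cells had the order of the class II chains and others did not. The summed conventional dendritic cell markers, of which Kmo and Dpp4 make up the largest share, stood at 54.7, 46.2 and 54.4 CPM in GM-CSF replicates 1 to 3, and the B cell markers at 39.9, 37.1 and 46.0 CPM. Neither sum had the order of the chains. Of the 8 conventional dendritic cell markers, 3 had it, namely Batf3 (11.7, 9.91 and 9.27 CPM), Xcr1 (2.68, 1.56 and 0.932 CPM) and Zbtb46 (1.55, 1.32 and 0.373 CPM). Of the 8 B cell markers, 2 had it, namely Ms4a1 (4.41, 3.42 and 2.61 CPM) and Cd22 (3.22, 2.28 and 1.35 CPM). Of the 8 monocyte markers, 3 had it (Ly6c2, Lyz2 and Fcgr1), and of the 6 plasmacytoid dendritic cell markers 0 did. The share of all genes with this order was not computed, so these counts cannot be read as particular to any cell type.

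**Figure D4:**
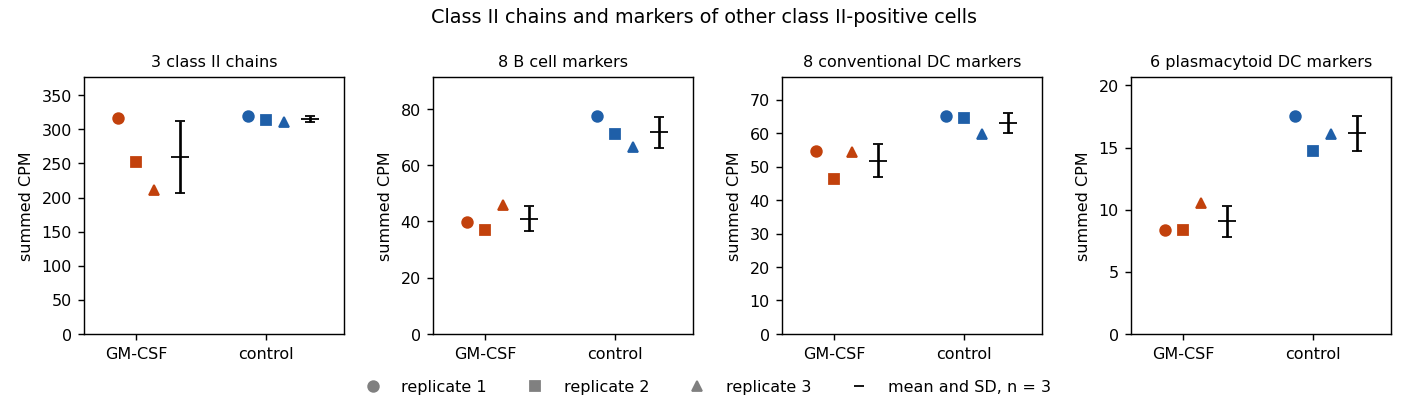
Summed CPM (y axis, linear, from 0) of the 3 class II chain genes and of markers of other cells that carry class II, in each GM-CSF and control library (x axis), with mean and SD beside each group (n = 3). The marker sums were lower in every GM-CSF library than in any control library, while the chain sums ran from 212 to 316 CPM with GM-CSF and 311 to 319.7 CPM in controls.

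The patterns of the 7 genes over the 6 libraries fell close together for the H2-DM pair and far apart for Ciita. Likeness was measured as the Euclidean distance between centred log2 CPM values. It was 0.177 between H2-DMa and H2-DMb1, 0.256 between H2-Aa and H2-Eb1, 0.285 between H2-Ab1 and H2-DMb1 and 3.28 between Ciita and H2-Aa. The search for the nearest other genes covered tested genes, with provisional symbols left out. Their mean log2 CPM had to be at least 3 for H2-Ab1 and at least 1 for Ciita. Of 8413 other genes, those nearest to H2-Ab1 were Zbtb8os (0.0911), the splicing helicase gene Ddx23 (0.0990), the zinc finger gene Zfp729a (0.127) and the tetraspanin gene Tspan3 (0.144), and none of these passed the test. Of 9893 other genes, those nearest to Ciita were the receptor gene Gpr146 (0.134), Gpd2 (0.169), which encodes mitochondrial glycerol-3-phosphate dehydrogenase, the nucleolar gene Rrp9 (0.177) and the mitochondrial carrier gene Slc25a25 (0.187). All 4 rose, by 1.95 to 2.08 on the log2 scale. The nearest genes were picked by their values in these same 6 libraries. That they changed as Ciita or H2-Ab1 did thus follows from the choice.

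**Figure D5:**
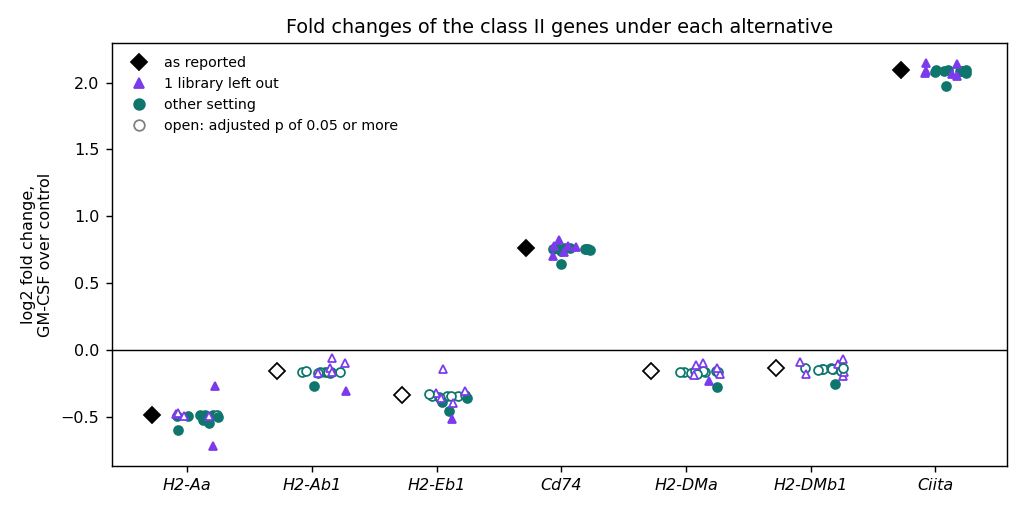
Log2 fold change, GM-CSF over control (y axis), of each class II gene (x axis) as reported and under each alternative setting. Diamonds are the reported values, triangles leave out 1 library and circles are other settings, with open symbols where the adjusted p was 0.05 or more. Ciita and Cd74 were called throughout, whereas the chain and H2-DM genes stayed below 0 and crossed the threshold in some settings.

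Gene counts per library ran from 16643228 to 21468929 in the GM-CSF group and from 20782467 to 25232956 in the control group. GM-CSF replicate 3, the lowest library for the chain genes, had the most gene counts of its group but the fewest genes with a read. These were 13378 genes, against 14003 and 14056 in GM-CSF replicates 1 and 2 and 14101 to 14253 in control libraries. Whether this bears on its chain values was not tested. The fewest reads behind a class II value were those of H2-Eb1 with GM-CSF, 499 to 650 per library, and those of Ciita in controls, 253 to 313 per library.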

How the data were processed

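Poly(A) RNA of 6 libraries was sequenced, and the deposited table holds raw counts per gene symbol. Per the submitters' processing notes, the software was HTSeq 0.6.1p1, STAR 2.5.2a, edgeR and Trim Galore 0.4.4, and the build mm10. Of the annotation and the strand setting, nothing is given in the sources used here, so reads of overlapping genes may be left out or mixed. A row of ambiguous reads held 1.44% to 1.53% of all rows' counts per library. Rows that name no gene were left out, and genes held 69.4% to 71.2% of all rows' counts. The test used edgeR 4.0.16 in R 4.3.3 (TMM, filterByExpr at its defaults, two-sided quasi-likelihood F test with group as the only term), over the 11731 of 24421 genes that passed. The SE is the absolute log2 fold change over the square root of F. Alternatives were other scalings and filters, a robust prior, a replicate block, limma-voom (limma 3.58.1), the DESeq2 1.42.0 Wald test, removal of the 10 most abundant genes, summed paralogs and each library left out. The procedure was tested on simulated data with far fewer changed genes than here and the same dispersion for all genes. That does not cover the unequal spread between the groups. Gene models are from GENCODE M21 (GRCm38, the assembly of mm10) and promoters from RefSeq.

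The 7 genes and the lists were chosen with earlier results of these data known, and 1 gene of the regulator list is not reported here. Of each list, the genes named were up to 4 called genes with the largest change and the 2 most abundant, of each marker list the 2 most abundant, and for H2-Ab1 and Ciita the 4 nearest genes. Other genes are named because few of a list moved that way, or were picked by their values.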

Additional observations from a re-analysis of the deposited data

How the results depend on the processing

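Over 16 alternatives the 7 class II genes kept their direction, and the counts of all genes called stayed within 1.5 times. The number of class II genes called lower was 1 as reported, 5 with upper quartile scaling (H2-Ab1 -0.27, H2-Eb1 -0.45, H2-DMa -0.27, H2-DMb1 -0.25), 2 with no filter (H2-Eb1 -0.35) and with limma-voom (H2-Eb1 -0.39), and 0 with the robust prior (H2-Aa -0.48), where the cause was not tested. With each library left out it ran from 0 to 3. Then H2-Aa ran from -0.72 to -0.27, H2-Ab1 from -0.30 to -0.059, H2-Eb1 from -0.52 to -0.14, H2-DMa from -0.23 to -0.10 and H2-DMb1 from -0.20 to -0.065. Whether replicate numbers pair the samples cannot be settled from 3 libraries per group. Same-numbered deviations correlated at 0.0725, 0.00999 and 0.00382, and not every library correlated best with its own number. With the replicate block 2 class II genes were called lower, H2-Eb1 (-0.36) being added. Of 61 other genes named, 16 changed their call or sign somewhere. Signs turned for Kmo with upper quartile scaling (-0.017) and, with each library left out, for Kmo (-0.040 to 0.21), H2-Ob (-0.31 to 0.10), Ddx23 (-0.23 to 0.029), Cd22 (-0.63 to 0.010) and Cd63 (-0.18 to 0.013). The wide spread between GM-CSF libraries limits the chain results, which rest on 499 reads or more per gene and library in that group.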

Other observations

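March3, which encodes another membrane ubiquitin ligase of the family of March1, moved the other way and was picked after its values were seen. It had 7.93, 7.21 and 4.84 CPM in the GM-CSF libraries, against 0.709, 1.07 and 0.674 CPM in the control libraries, with no overlap. The log2 fold change was 3.01 ± 0.30 (edgeR adjusted p = 6.35e-06).

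The X box core followed by the Y box was found in promoter windows of 25 genes in all. Besides H2-Aa, H2-Eb1, H2-DMb1 and H2-Ob these were genes from outside the class II region. Of the 17 that were tested, 2 were called higher and 6 lower, beside 32.8% and 31.2% of all genes tested.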
